A study of Caenorhabditis elegans with 2 samples.

Results

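The gene *lin-11* (WBGene00003000, I:10248288-10255327 on the WBcel235 assembly, plus strand) was examined together with 20 kb of sequence on each side, I:10228288-10275327. Every region of the deposited ce11 lists with its summit in this window was taken, with the summit placed at the region's start plus the deposited offset. The window held 26 of the 30000 candidate regions called on pooled reads, 8 of the 1917 regions of the authors' optimal list, 31 of 30000 candidates of replicate 1 and 28 of 30000 candidates of replicate 2. The data come from chromatin immunoprecipitation followed by sequencing (ChIP-seq) of the LIN-11 protein in whole *Caenorhabditis elegans* larvae at the second larval stage, L2, with males and females pooled and the age given as unknown. Both samples are of strain OP62, genotype unc-119(ed3) III; wgIs62, in which LIN-11 carries GFP and FLAG at its C terminus, and the label of the insertion names *lin-11* as its target. The note on the tag stands on the replicate 1 sample only, the antibody entry names lin-11 while the description names eGFP-lin-11, and the promoter of the introduced gene is not given. The worms are listed as coming from the Michael Snyder laboratory for replicate 1 and from CGC for replicate 2. As these 2 replicates are the only group, nothing could be tested between conditions, and values are given for each replicate. The strain has its native *lin-11* and the introduced one, whose extent is not given in the sources used here. Reads from the native and introduced copies cannot be told apart, and this holds for every value at the gene and wherever the insertion extends. Whether the introduced copy raised signals, ranks and counts there relative to other loci was not tested.

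LIN-11 is a founding member of the LIM homeodomain family, transcription factors with a pair of LIM zinc fingers that bind partner proteins and a homeodomain that binds DNA. In the worm it is known for the division pattern of secondary vulval precursor lineages, for uterine cells and for the identity of several neuron classes. Transcription factors can also bind at their own genes, and the window asks which sequences in and around *lin-11* were recovered with the tagged protein. The annotated gene has 1 transcript with 10 exons and 9 introns. Upstream lies *csnk-1* on the opposite strand, which RefSeq names casein kinase I gamma, so the 2 genes point away from each other. Downstream lie ZC247.2 and ZC247.1, both protein-coding and on the minus strand. The window also holds 5 short noncoding RNA (ncRNA) genes. Signal below is the authors' value for a region, with no unit stated, and rank 1 is the highest signal in a list. Signals are not compared in size between lists, because their scaling is not given in the sources used here.

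Optimal peaks were crowded around *lin-11*. Of the 26 pooled candidates in the window, 8 (30.8%) were in the optimal list, against 6.39% of all pooled candidates. That is 1.7 optimal summits per 10 kb, against 0.191 in the nuclear genome and 0.231 on chromosome I. The 8 summits lay 4 before the gene's start and 4 inside it, and none beyond its end. All pooled candidates together, optimal ones included, came to 5.53 per 10 kb in the window against 2.99 in the genome. The 18 that were not optimal came to 3.83 per 10 kb, against 2.8 in the genome. Over all candidates of replicate 1 the values were 6.59 and 2.99, and for replicate 2 they were 5.95 and 2.99.

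**Figure D1:**
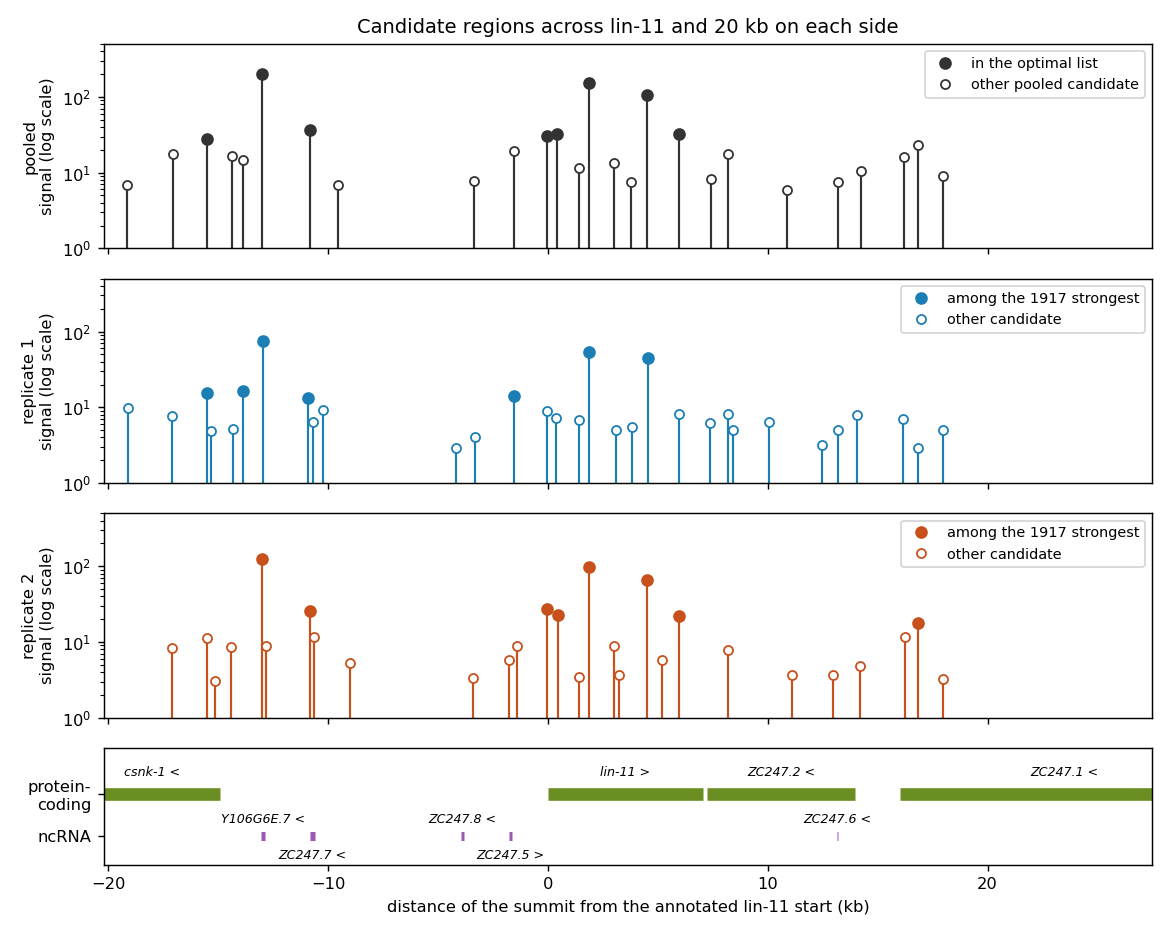
Each line is 1 candidate region, placed by the distance of its summit from the annotated lin-11 start (kb), with its signal on a log scale in the pooled list, replicate 1 and replicate 2; filled points are in the optimal list or among the 1917 strongest of a replicate. Arrowheads in the lowest panel give gene direction, and the 3 tallest lines lie at the same places in all 3 lists.

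The 3 strongest regions of the window were found in both replicates at similar ranks. The highest was the upstream peak (I:10235116-10235439), whose summit was 13010 bp upstream of *lin-11* and 1892 bp upstream of the longer *csnk-1* transcript. It had a pooled signal of 199 and rank 11, which made it the second strongest region on chromosome I. In replicate 1 its signal was 75.6 at rank 9, and in replicate 2 it was 123 at rank 14. Its summit lay within the 177 bp ncRNA gene Y106G6E.7, which is on the same strand as *csnk-1*. The pooled and replicate 2 summits were at the same base, and that of replicate 1 was 52 bp away.

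The second (I:10250079-10250232) was in intron 3 of *lin-11*, 1868 bp past the start, with a pooled signal of 153 at rank 39. Its signal was 53.5 in replicate 1, at rank 68, and 96.9 in replicate 2, at rank 48. The third (I:10252649-10252972) was in intron 7, 4523 bp past the start, with a pooled signal of 107 at rank 132. Its signal was 44.4 in replicate 1, at rank 125, and 65.0 in replicate 2, at rank 162. These are the longest introns of the gene, at 1355 bp and 1284 bp, and the next longest, intron 2 with 767 bp, held no pooled candidate. The intron 3 region was also narrow. It was 154 bp wide in the pooled list and 146 bp in replicate 2, where most regions are 324 bp, but 330 bp wide in replicate 1, as nearly all regions there are. The 61 pooled regions narrower than 324 bp all rank at 195 or better.

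The promoter peak and its neighbour in intron 1 were weaker, and they ranked well apart in the replicates. The promoter region (I:10248099-10248422) had its summit 27 bp upstream of the annotated start, with a pooled signal of 30.8 at rank 1678. Its signal was 27.6 in replicate 2, at rank 1002, and 8.93 in replicate 1, at rank 4124. In intron 1 (I:10248529-10248852, summit at 403 bp), the pooled signal was 32.0 and the rank 1605. It had 22.4 in replicate 2, at rank 1351, and 7.15 in replicate 1, at rank 6705. The replicate summits lay on both sides of the pooled one, 50 bp before it in replicate 1 and 52 bp after it in replicate 2, so they were not within 100 bp of each other. Both regions were thus among the 1917 strongest of replicate 2 and outside the 1917 strongest of replicate 1.

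The remaining peak in the gene (I:10254091-10254414) was in intron 8, toward the 3′ end of the gene and 5965 bp past its start. It had a pooled signal of 32.0 at rank 1604, a replicate 2 signal of 22.3 at rank 1366 and a replicate 1 signal of 8.18 at rank 4973. It shared this order with the promoter and intron 1 peaks. The gene thus held an optimal summit in introns 1, 3, 7 and 8 and none in an exon. The regions around the summits in introns 1, 7 and 8 also covered exon sequence, and the intron 3 region did not. The other 3 pooled candidates inside *lin-11* were weak. They lay in coding exon 3 (signal 11.6, rank 8102), intron 4 (13.4, rank 5946) and intron 5 (7.50, rank 18787).

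Of the 3 optimal summits between *lin-11* and *csnk-1*, the promoter one lay at the *lin-11* end and the other 2 toward *csnk-1*. Beside the rank 11 peak there was one (I:10237329-10237652) 10797 bp upstream of *lin-11*, within the 221 bp ncRNA gene ZC247.7, with a pooled signal of 37.1 at rank 1304. In replicate 2 a summit 42 bp away had a signal of 25.6 at rank 1112. Replicate 1 had a summit on either side of it. The nearer one, 98 bp away, had a signal of 6.47 at rank 8367, and the stronger one, just over 100 bp away, had 13.2 at rank 1815. Of the 8 optimal summits in the window 2 lay inside an annotated ncRNA gene, against 11.6% of all optimal summits and 3.37% of all pooled candidates. At ZC247.7 the matched replicate 2 summit and the stronger replicate 1 summit lay outside the gene, and the nearer replicate 1 summit lay inside it. From the ZC247.7 peak to the *lin-11* promoter there were only 3 pooled candidates, none of them optimal. The candidates 9550 and 3367 bp upstream of *lin-11* had pooled ranks of 21938 and 17818. The strongest of these, 1534 bp before the start, had a pooled signal of 19.4 at rank 3167. In replicate 1 it had a signal of 14.1 at rank 1601. Replicate 2 had no summit within 100 bp of it, but 1 on each side, with signals of 5.86 and 8.95 at ranks 11498 and 5051. The largest gap between neighbouring pooled summits of the window, 6183 bp, also lay in this stretch.

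At *csnk-1* itself the window held 1 optimal peak (I:10232615-10232938), in the first intron of the longer transcript, 609 bp past its start. Its pooled signal was 28.0 at rank 1898, close to the lowest signal in the optimal list, 27.8. Outside the 3 strongest it was the only optimal peak of the window that ranked better in replicate 1, where its signal was 15.4 at rank 1391, than in replicate 2, where it was 11.4 at rank 3347. A candidate 6 bp upstream of the start of the shorter *csnk-1* transcript had a pooled signal of 17.7 at rank 3609. Its signals were 7.73 in replicate 1 and 8.43 in replicate 2, at ranks 5629 and 5660. Upstream of the longer transcript, a candidate 525 bp before its start had a pooled signal of 16.8 at rank 3926. Another 1016 bp before it had a pooled signal of 14.8 at rank 4894, with 16.3 at rank 1254 in replicate 1 and no summit within 100 bp in replicate 2. In coding exon 5 of *csnk-1* a candidate with a pooled signal of 6.80 at rank 21995 was matched in replicate 1 only. Because *csnk-1* and *lin-11* are divergent, distance does not assign the peaks between them to either gene.

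Downstream of *lin-11* there were 8 pooled candidates and no optimal peak. The strongest lay in coding exon 9 of ZC247.1, 16833 bp past the *lin-11* start, with a pooled signal of 22.9 at rank 2538. Among the candidates matched in both replicates, this one had the most unequal ranks. Their summits were at the same base, but the signal was 17.7 at rank 1876 in replicate 2 and 2.91 at rank 28755 in replicate 1. In ZC247.2, whose RefSeq product is a protein with a domain of unknown function, the strongest candidate was in coding exon 10 (17.4, rank 3709), with ranks of 5002 and 6350 in replicates 1 and 2. A candidate 261 bp upstream of the ZC247.2 start had a pooled signal of 10.6 at rank 9739 and no replicate 1 summit within 100 bp. Its replicate 2 match had a signal of 4.81 at rank 16177. Replicate 1 had a summit farther off, 108 bp upstream of that start, with a signal of 8.01 at rank 5220. At the stop codon of ZC247.1 a candidate had a pooled signal of 16.0 at rank 4262. The candidates in the 3′ untranslated region of ZC247.2 (8.24), 10892 bp past the *lin-11* start (5.81) and in ZC247.2 intron 1 at the ncRNA gene ZC247.6 (7.43) had pooled ranks between 15927 and 27542, and none was matched in replicate 2. The last pooled candidate had a signal of 8.94 and was 17977 bp past the *lin-11* start, and the remaining 9062 bp of the window, inside ZC247.1, held none.

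**Figure D2:**
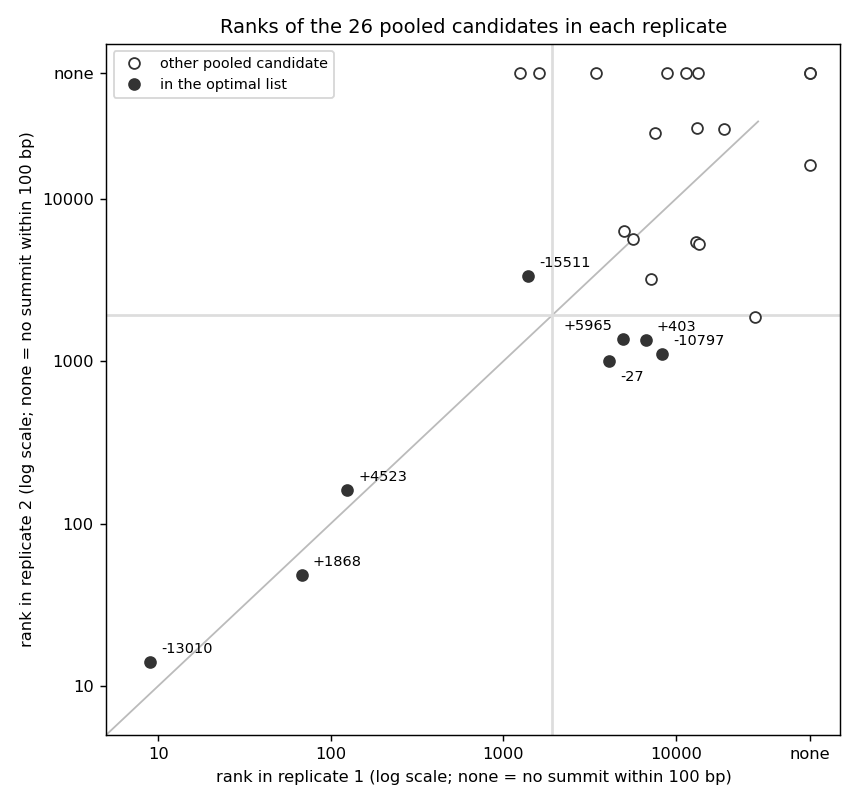
Ranks of the 26 pooled candidates of the window in replicate 1 and replicate 2 (log scales), with the distance from the lin-11 start in bp printed beside the 8 optimal ones; grey lines mark rank 1917 and equal ranks. The summits at -13010, +1868 and +4523 lie near the line of equal ranks, and 4 optimal summits are among the 1917 strongest in replicate 2 only.

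All 8 optimal summits had a summit of each replicate within 100 bp, as did 91.4% of all optimal peaks. The optimal list derives from the same reads, so such a match is partly built in. When only the 1917 strongest regions of each replicate were considered, 3 of the 8 were matched in both, against 57.5% of all optimal peaks. Those 3 are the peaks at 13010 bp upstream, in intron 3 and in intron 7. In all, 7 of the 8 were among the 1917 strongest of replicate 2 and 4 among those of replicate 1. The shares of all optimal peaks for each replicate alone are not given here, so this difference is not shown to be particular to the window. Over all 26 pooled candidates of the window, 17 (65.4%) were matched in both replicates, against 25% of all pooled candidates. Of the others, 6 had a match in replicate 1 alone, 1 in replicate 2 alone, and 2 had no match. Of the 17, 8 ranked higher in replicate 1 and 9 in replicate 2. The window's candidates were stronger than the list as a whole: 19 of the 26 (73.1%) were above the pooled median signal. The matched share among candidates of like signal is not given here, so the higher share is not shown to be particular to the window. Summit positions also differed more in replicate 1: the median distance from an optimal summit to the matched one was 34 bp in replicate 1 and 0.5 bp in replicate 2, against 11 bp and 7 bp over all optimal peaks.

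Each replicate also had candidates of its own in the window. In replicate 1, 7 of 31 summits had neither a pooled summit nor one of the other replicate within 100 bp, and in replicate 2 this held for 9 of 28. The same share over all candidates is not given here, so these counts are not shown to be particular to the window. The strongest of these in replicate 1 lay 10228 bp before the *lin-11* start, with a signal of 9.15 at rank 3915. In replicate 2 it was the summit 1383 bp before the start, with a signal of 8.95 at rank 5051. The next, 12810 bp before the start and beside the rank 11 peak, had a signal of 8.81 at rank 5203. Within 100 bp, 16 of the 31 replicate 1 summits (51.6%) had a replicate 2 summit, against 24.6% of all replicate 1 candidates. For replicate 2 it was 16 of 28 (57.1%), against 24.6% of all its candidates, so matches were more frequent in the window. In the window, 87.1% of replicate 1 candidates and 71.4% of replicate 2 candidates were above the median signal of their list. Shares among candidates of like signal are not given here, so the more frequent matches are not shown to be particular to the window.

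The same window was then drawn around each of 19973 protein-coding genes. The *lin-11* window held the most optimal summits, 8, and it was the only one with as many (0.00501% of genes). Of the 3 window sizes tried, this sole lead held at 20 kb on each side only. With 10 kb on each side the *lin-11* window held 5, which 27 genes (0.135%) reached, and the highest count of any gene was 7. With 50 kb it held 8, which 180 genes (0.901%) reached, and the highest was 11. In the stronger part of the optimal list, above its median rank, it held 3, which 355 genes (1.78%) reached, and the highest was 6. With 20 kb and the full list the median across genes was 1, and 13 genes had 7 in their window. One of these is *csnk-1*, whose window shares summits with that of *lin-11*. Windows of neighbouring genes overlap and longer genes have longer windows, so these shares are a description. The introduced *lin-11* may also add reads and calls in the *lin-11* window, and its part in these counts was not tested. Per 10 kb, 0.015% of genes had at least as many optimal summits as the *lin-11* window. Within the gene body, 0.0401% of genes had 4 or more optimal summits, but the *lin-11* body held 2 rather than 4 among the 1917 strongest regions of replicate 1, and 2 in the stronger part of the optimal list. In the top 200 of the pooled list, the *lin-11* window had 3 summits, and 0.01% of genes had as many, namely *lin-11* and *csnk-1*, which share these peaks. Counts of all candidates, strong and weak, set it apart less: 3.13% of genes had 26 or more pooled candidates in the window, 0.576% had 31 or more replicate 1 candidates and 1.27% had 28 or more replicate 2 candidates.

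The lead at 20 kb also rested on replicate 2. With the 1917 strongest regions of replicate 2 in place of the optimal list, the *lin-11* window again held 8 and again no other gene had as many. These were not the same 8. The peak in the *csnk-1* intron (rank 3347 in replicate 2) dropped out, and the candidate in ZC247.1 coding exon 9 (rank 1876) came in. With those of replicate 1 it held 7, a count that 39 genes (0.195%) reached, and the highest was 11. The 8 optimal summits of the window spanned 21476 bp, the shortest run of 8 consecutive summits in the optimal list, and the shortest run elsewhere, also on chromosome I, spanned 46265 bp. In the 1917 strongest regions of replicate 2 the shortest run of 8 was also at *lin-11*, at 29843 bp, and the shortest elsewhere was 46272 bp. In those of replicate 1 the shortest run lay on chromosome II and spanned 9407 bp.

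**Figure D3:**
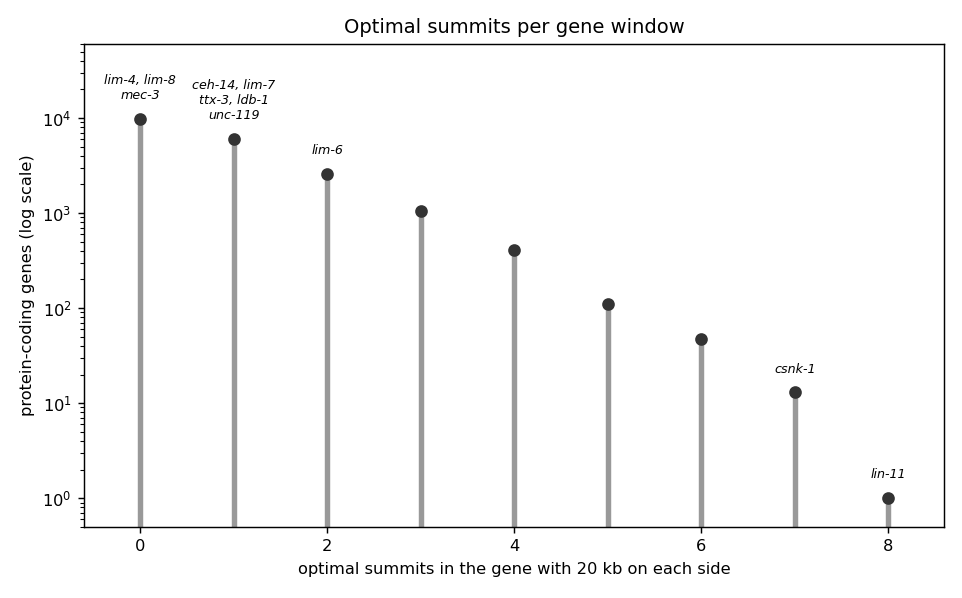
Number of protein-coding genes (log scale) by the count of optimal summits in the gene with 20 kb on each side. The lin-11 window, with 8, is alone at the right end; csnk-1, whose window overlaps it, has 7, and the other LIM genes, ldb-1 and unc-119 have 0 to 2.

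Other genes of the family did not show such a cluster. The windows of the 6 other LIM homeobox genes held 0 to 2 optimal summits. Most genes have such counts: of 19973 protein-coding genes, 9706 had 0, 6043 had 1 and 2603 had 2. The highest count was at *lim-6*, which acts in neurons, with 2. There was 1 each at *ceh-14*, *lim-7* and *ttx-3*, and none at *lim-4* or *mec-3*, the touch neuron gene. None of the 6 had an optimal summit inside the gene, and the share of all genes without one is not given here. The window of *ldb-1*, which encodes the LIM domain binding cofactor, held 1, and that of *lim-8* held none. At *unc-119*, whose mutant allele is part of the strain's genotype, the window held 23 pooled candidates and 1 optimal summit. That summit was 863 bp past the start, with a pooled signal of 33.1 at rank 1530, 4.26 at rank 17713 in replicate 1 and 27.4 at rank 1010 in replicate 2. No test of the difference between these windows was made, and the part of the introduced *lin-11* in it cannot be told apart.

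Just past 20 kb on either side of the *lin-11* start the candidates thinned out. In 10 kb bins counted from the *lin-11* start, the 4 bins from -20 to 20 kb held 7, 4, 9 and 6 pooled candidates. The bin just upstream, from -30 to -20 kb, held 1. The bin from 20 to 30 kb, which includes the downstream end of the window, held 0. Both replicates had the same counts as the pooled list in these flanking bins. Within 100 kb there were other dense bins. The one from -80 to -70 kb held 9 pooled candidates, with a highest signal of 20.7 and no optimal summit. The only other optimal summits in this stretch were 2 between 80 and 90 kb past the start, with a highest signal of 36.7.

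**Figure D4:**
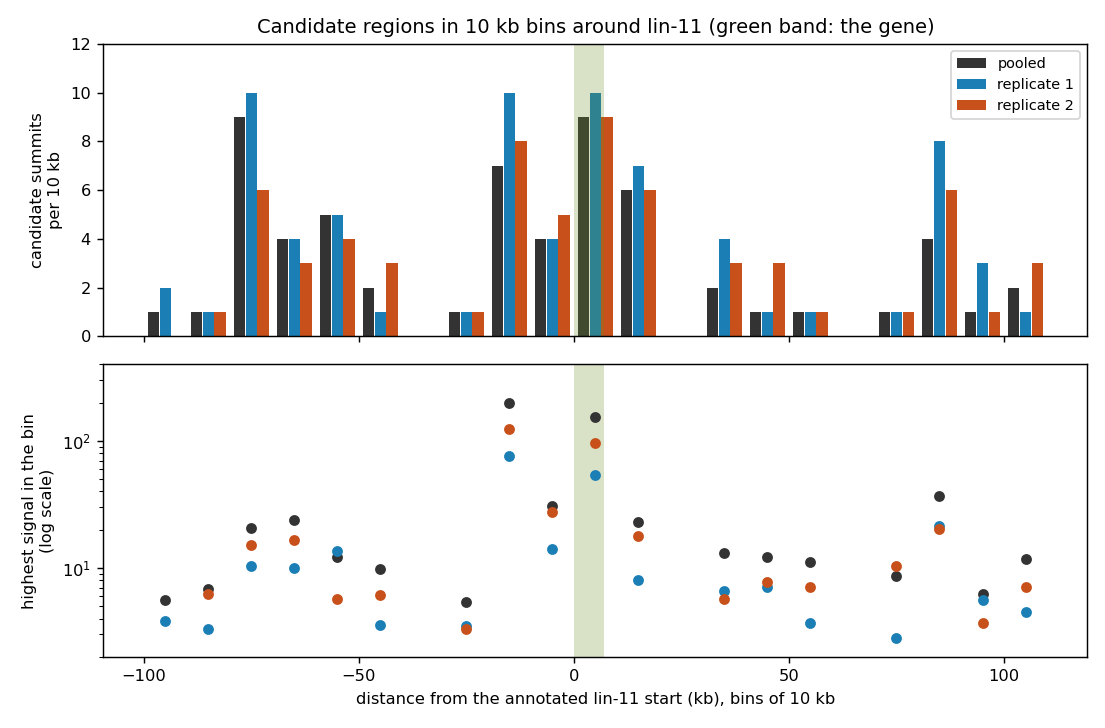
Number of candidate summits per 10 kb (upper panel) and the highest signal in each bin (lower panel, log scale, scaled separately in each list) against distance from the lin-11 start. Bins from -20 to 20 kb hold 4 to 9 pooled candidates each, and the bins next to them hold 0 or 1.

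Short motifs were searched within 50 bp of each summit on both strands, counting overlapping matches. None of the 8 optimal summits held TAATTA, a core sequence bound by many homeodomains, which was present at 1.04% of all optimal summits and 2.39% of all pooled candidates. None of the 26 pooled candidates held it either. Around the replicates' own summits it was found at the coding exon 3 candidate of *lin-11* in both replicates (ranks 7546 and 25420), and at a replicate 1 candidate in ZC247.2 intron 8 (rank 13331). TAATTA occurred 19 times in the whole window and 5 times in the gene, and the occurrence nearest to an optimal summit was 151 bp away, at the rank 11 peak. The related TAATTG was at 1 of the 8, in intron 1, against 3.03% of optimal summits and 5.29% of pooled candidates. GAGAGA was at 5 of the 8 optimal summits, against 27.2% of all optimal summits and 9.39% of pooled candidates, and at none of the other 18 pooled candidates in the window. The 5 were the upstream peaks at 13010 and 10797 bp, the promoter, intron 1 and intron 7. At the promoter its 7 matches overlapped in a single repeat. A match describes these letters, not binding. The strongest peak inside the gene, in intron 3, held none of the 3 motifs. GC content in the same stretch ran from 40.6% to 53.5% at the 8 summits, against a median of 50.5% over all optimal peaks.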

How the data were processed

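Peaks are from 2 replicates of L2 larvae. The deposited lists are in narrowPeak format. Per the deposited notes, lists were called for each replicate and for pooled reads against a control alignment, and the optimal list is the output of the irreproducible discovery rate procedure. The caller, the aligner, their versions and the threshold used are not given here in any source. The authors' signal (column 7) was used to rank regions within a list, with ties given the better rank. Their −log10 q-value, as deposited, reached a ceiling of 3.54 in 1749 pooled regions, so it was not used. The optimal list equals the 1917 pooled regions of highest signal. The ce10 lists were not used.

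Regions were placed on WBcel235 (ce11) with Ensembl 115 gene models and the RefSeq genome, counted from 1, with Python 3.11.15 and pandas 2.3.3. Summits matched at 100 bp or less, and the nearest was taken. Motifs were counted within 50 bp of a summit. Counting and matching were checked on simulated lists. No test was run, since there is 1 group. Genes named were *lin-11*, every protein-coding gene in the window, *unc-119* and the LIM genes. The members and lists were chosen with earlier results of these data known. Read depth is unknown, so no interval from depth is given.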

Additional observations from a re-analysis of the deposited data

How the results depend on the processing

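A count was taken as kept when it stayed within 1.5 times its value, and the median percentile when it moved by less than the SD of the 2 replicates' values, 0.464. By this, 22 alternatives kept their value and 13 did not. With 10 kb on each side the window held 5 optimal summits and 20 replicate 1 candidates, and 27 genes had at least as many optimal summits in a window of that size. With 50 kb on each side it still held 8, a count reached by 180 genes. In the part of the optimal list above its median rank 3 summits were left in the window and 2 in the gene, at a median signal percentile of 99.87 against 95.15 with the full list, and 355 genes had at least 3. Leaving out a replicate (the 1917 strongest regions of the other one stood in for the optimal list) gave 7 to 8 summits in the window, 2 to 4 in the gene, a median percentile within the remaining replicate of 95.82 to 96.48, and 1 to 39 genes with at least as many. The lower gene count, 2, and the 39 came without replicate 2. With matches at 50 bp, 5 of the 8 optimal summits were matched in both replicates. Among the 1917 strongest of both replicates, 2 were matched at 50 bp, 3 at 100 bp and 4 at 200 bp or by overlap of regions. The counts of genes under these settings were added after the data were seen. The cause of these differences was not tested beyond the construction of each setting, which changes the window, the list or the distance. No paired analysis was possible because there is 1 group. Depth is unknown, so a summit absent from a list may lie below its 30000 regions.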
